A study of Mus musculus with 6 samples.

Results

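Small nucleolar RNAs (snoRNAs), small Cajal body RNAs and the noncoding genes that host many of them were examined in mouse CD8+ T cells. They were taken by symbol, as genes whose name begins with Snord, Snora, Scarna or Snhg, together with Gas5, from probe sets annotated to exactly 1 gene symbol, each gene being read from its probe set of highest average level. The rule gave 93 of the 22180 genes measured in the series, of which 47 were Snord, 26 Snora, 5 Scarna and 15 Snhg genes. Gas5 was not among them, because its only probe set also carries another symbol. In all, 33 member names, Gas5 included, were found only on probe sets with several symbols and were not used as members. The arrays are Affymetrix whole-transcript gene arrays, 3 of them labelled Dot1l knockout and 3 labelled wild type, all from mice of the C57BL/6 strain, with no age stated. The knockout-labelled mice come from a cross of Dot1l flox/flox mice with CD4-Cre mice, in which the Cd4 promoter drives Cre during T cell development, so Dot1l is targeted in both CD4 and CD8 T cells of these animals. Whether the wild type mice carried floxed alleles or Cre, and which exon the loxP sites flank, is not stated. Nor is it stated whether the 3 arrays of each genotype are 3 animals, so the p-values reflect the spread among these samples alone, which may be technical. CD8+ T cells were isolated from peripheral lymph nodes and spleen with a magnetic kit.

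Most vertebrate snoRNAs are cut out of the introns of other genes after splicing. Box C/D snoRNAs (Snord) guide methylation of the ribose of ribosomal RNA by fibrillarin, box H/ACA snoRNAs (Snora) guide the conversion of uridine to pseudouridine by dyskerin, and small Cajal body RNAs (Scarna) do the same for the RNAs of the spliceosome. A few, such as Snora73a and Snora73b (U17), Snord118 (U8) and Snord13 (U13), act in cleavage of the ribosomal RNA precursor. Hosts are ribosomal protein and translation factor genes, nucleolar protein genes, or Snhg genes, whose exons code for no known protein and whose spliced RNA is often destroyed by nonsense-mediated decay. A probe set for a small RNA reads any RNA that holds its sequence, so the mature small RNA and the unspliced host transcript cannot be told apart on these arrays.

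Host genes of this kind often begin transcription at a C followed by a run of pyrimidines, the tract known from ribosomal protein genes. The start regions of 4 noncoding hosts that recur below are shown from RefSeq (GRCm38.p6), each from 60 bases before to 40 bases after the annotated start. Capitals mark the first C followed by at least 4 bases that are C or T, read on the strand of the gene, that begins within 5 bases of that start. Snhg7 is shown as the Snhg gene that differed between the groups, and Snhg3, Snhg12 and Snhg1 as hosts whose small RNAs are set beside them further on.
Snhg7 (chr2:26640205-26640304, minus strand): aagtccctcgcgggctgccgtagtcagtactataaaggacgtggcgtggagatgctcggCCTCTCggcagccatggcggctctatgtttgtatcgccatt
Snhg3 (chr4:132353647-132353746, minus strand): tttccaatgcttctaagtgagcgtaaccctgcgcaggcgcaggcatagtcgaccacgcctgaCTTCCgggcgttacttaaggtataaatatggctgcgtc
Snhg12 (chr4:132308618-132308717, plus strand): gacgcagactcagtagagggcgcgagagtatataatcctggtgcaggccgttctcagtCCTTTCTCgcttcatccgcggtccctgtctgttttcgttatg
Snhg1 (chr19:8723427-8723526, plus strand): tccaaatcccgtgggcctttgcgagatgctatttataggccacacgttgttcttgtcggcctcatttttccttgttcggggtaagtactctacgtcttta
Snhg1 has no such tract inside that window. Among the 13 Snhg members with a start region 6 had one (46.2%), and among 52 Snhg genes and other hosts 17 did (32.7%), against 4989 of 27025 genes (18.5%). In the 250 bases before the start, searched on both strands, the core of the interferon-stimulated response element, GAAA and GAAA with any 2 bases between them, was found in 0 of the 13 Snhg members, against 3.0% of all genes. The STAT motif TTCNNNGAA was also found in 0 of them, against 7.2% of all genes, and the MYC motif CACGTG, which reads the same on both strands, in 1 of them (Snhg9), against 6.0%. Among the 52 Snhg genes and other hosts, CACGTG was found in 7 (13.5%), and the interferon element and TTCNNNGAA in 2 each (3.8%). A match is a string of letters, and no match says only that these letters are not in the window. The sequences of the small RNAs themselves were not used here.

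The arrays had no clear outlier over all genes. Correlations over the 22180 genes were 0.994 to 0.995 among knockout-labelled arrays, 0.989 to 0.993 among wild type arrays and 0.984 to 0.987 between the groups, and no array repeated another. Over the 78 small RNAs the same arrays correlated less, at 0.957 to 0.993 among knockout-labelled arrays, 0.954 to 0.979 among wild type arrays and 0.901 to 0.98 between the groups, each a description across genes of the same libraries. The Dot1l probe set read 7.31, 7.26 and 7.33 in knockout-labelled arrays, against 7.46, 6.96 and 7.18 in wild type arrays (log2 difference 0.10, adjusted p = 0.765), so it did not check the labels, and directions below refer to arrays as labelled. Of 6 T cell markers measured none passed the test, with summed log2 levels of 64.76 to 65.10 in knockout-labelled and 64.67 to 65.61 in wild type arrays. Of 8 B cell markers Cd22, Cd79a and Ms4a1 rose and Ighm fell, with summed levels of 43.87 to 45.63 in knockout-labelled and 40.54 to 42.70 in wild type arrays. Of 7 dendritic cell markers H2-Aa and Itgax rose, with summed levels of 31.14 to 31.85 in knockout-labelled and 27.02 to 29.68 in wild type arrays. Of 9 measured interferon-stimulated genes 8 rose and Ifit3 did not pass, at a median log2 difference of 1.90. Of 8 markers of monocytes, macrophages and neutrophils Itgam rose, with summed levels of 27.98 to 29.08 in knockout-labelled and 27.94 to 30.40 in wild type arrays. Of 5 CD4 and regulatory T cell markers Il2ra rose, with 25.74 to 26.07 in knockout-labelled and 25.97 to 26.04 in wild type arrays. Neither of 2 NK cell markers passed, with 9.47 to 9.54 in knockout-labelled and 7.49 to 9.13 in wild type arrays. No erythroid marker was measured. By the background guide given below, 5 of the 8 B cell, 3 of the 7 dendritic cell and 3 of the 8 myeloid markers averaged above it. So did 4 of the 5 CD4 and regulatory T cell markers and 1 of the 2 NK cell markers. The summed levels include the markers below it. Whether cells other than CD8+ T cells were in these samples, and any part of theirs in the results below, was not tested.

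As a guide to background, the 95th percentile of 1394 receptor genes of the olfactory and vomeronasal families was taken, a log2 level of 3.835. Of the members 85 of 93 averaged above that guide, 73 of 78 small RNAs and 12 of 15 Snhg genes. Values are log2 units of the authors' RMA normalization, and each gene was tested with limma, p-values being adjusted over all 22180 genes by the Benjamini-Hochberg method. The threshold for passing was an adjusted p of 0.05.

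Of the 93 members, 9 rose and 1 fell in knockout-labelled arrays, and 83 did not pass. Over all genes 5.50% passed in either direction, 4.30% as higher and 1.20% as lower, beside 9.68% of the members as higher and 1.08% as lower. Among genes above the background guide the gap was smaller, with 8 of 85 members higher (9.41%) beside 7.87% of all such genes, and 1 lower (1.18%) beside 2.08%. The 3 knockout-labelled values lay clear of the 3 wild type values in 22 members, 17 above and 5 below, which is 23.7% of the members beside 23.5% of all genes (13.7% above and 9.78% below). The median log2 difference was 0.03 over the 93 members and -0.01 over all genes, and it was 0.09 over the 78 small RNAs, 0.01 over the 15 Snhg genes, -0.01 over Snord, 0.12 over Snora and 0.24 over Scarna. After another quantile normalization over all probe sets the median of the small RNAs was -0.002. Under that normalization 625 genes passed as higher and 470 as lower, where the deposited values gave 954 and 266, and 4 members passed as higher and 2 as lower. Single members differed by -1.08 to 1.09 log2 units. Fewer cells of a type and less RNA per cell cannot be told apart in such bulk samples.

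**Figure D1:**
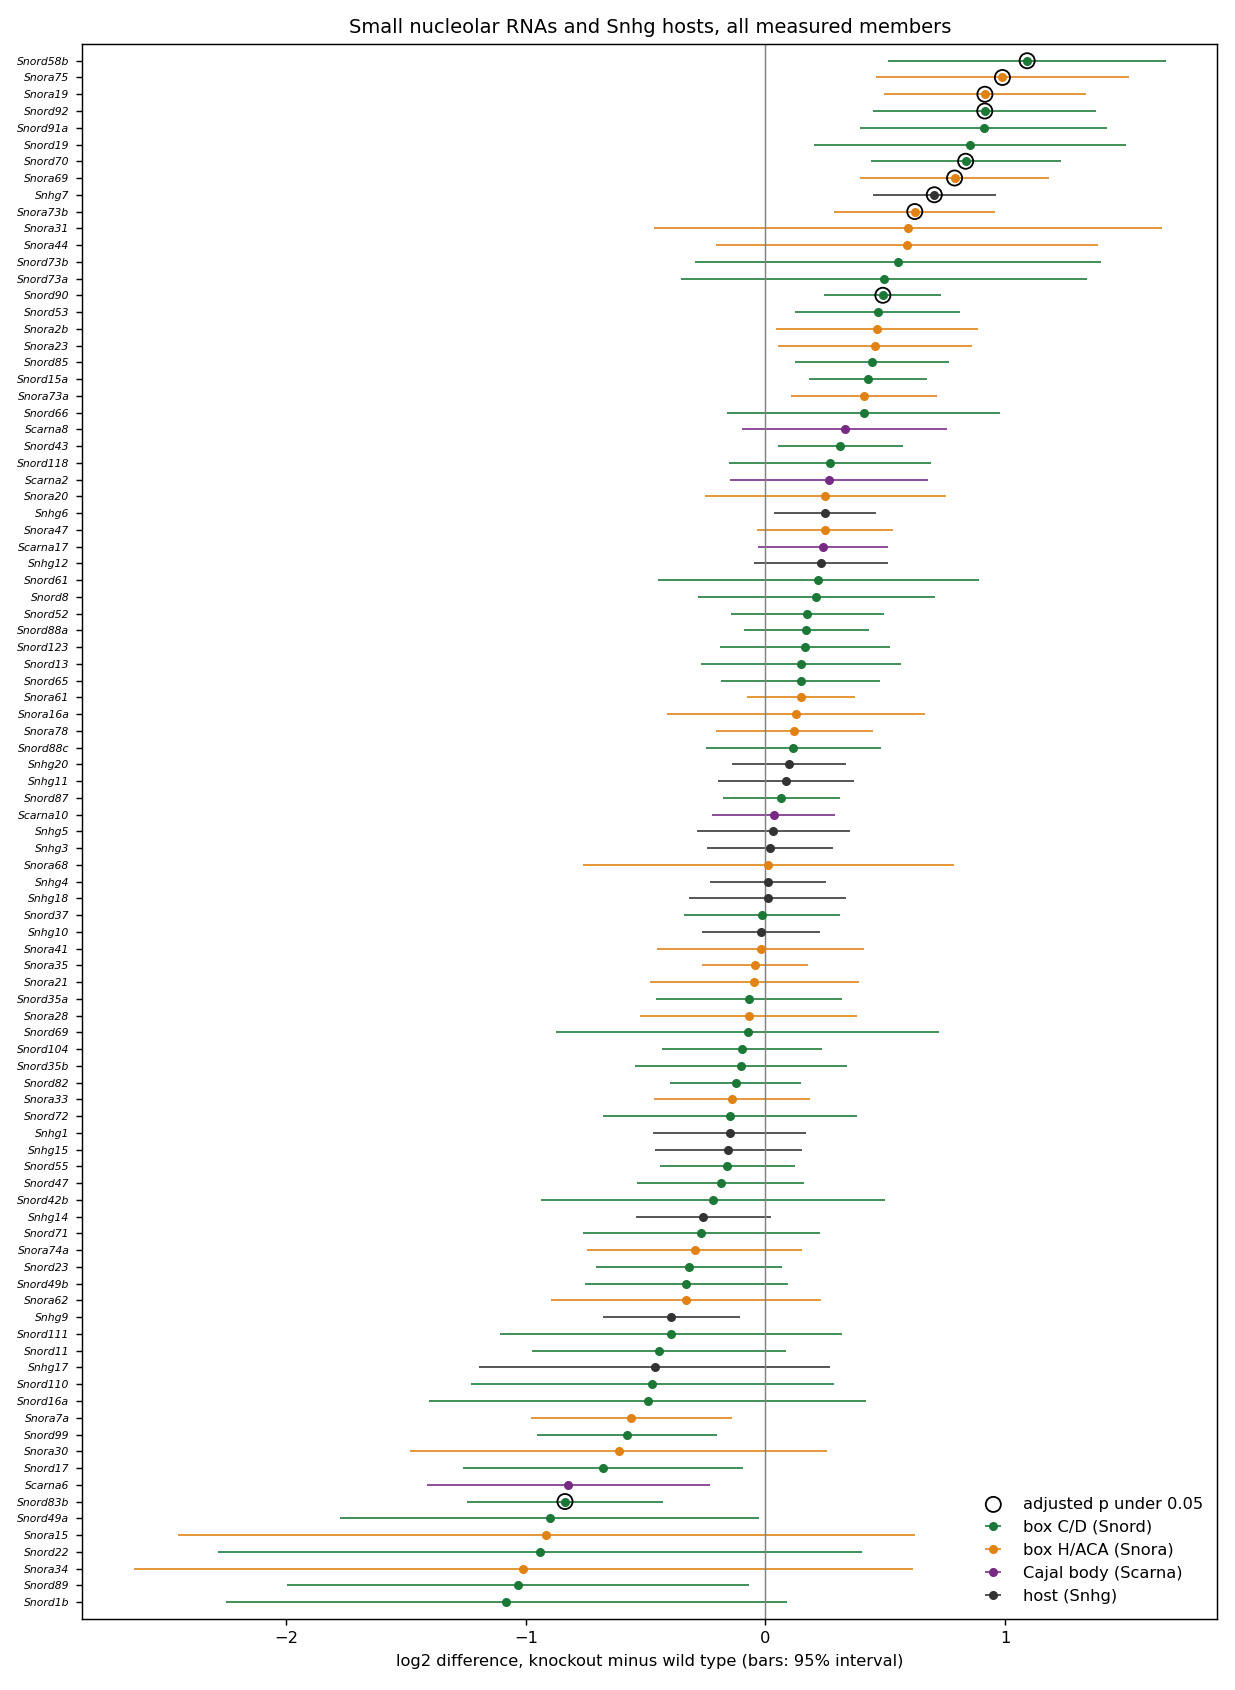
The x axis gives the log2 difference, knockout-labelled minus wild type arrays (3 each), for all 93 members, 1 a row, with its 95% interval from limma as a bar and its class as a colour. Rings mark the 10 members past an adjusted p of 0.05, of which Snord83b is the only ring left of 0, and the widest intervals belong to small RNAs such as Snora34.

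Among the noncoding hosts, Snhg7 was the 1 of 15 that passed. Snhg7 read 5.79, 6.13 and 5.99 in knockout-labelled arrays, against 5.25, 5.23 and 5.32 in wild type arrays. The groups did not overlap, and the difference was 0.70 (SE 0.11, adjusted p = 0.00692), a 1.63-fold rise. With any single array left out it still passed, in 6 of 6 fits, with adjusted p between 0.00927 and 0.0394.

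The other 14 Snhg genes did not pass. Snhg6, the host of Snord87, read 8.64, 8.59 and 8.70 in knockout-labelled arrays, against 8.39, 8.40 and 8.39 in wild type arrays. These values did not overlap, but the difference of 0.25 (SE 0.09, 95% interval 0.04 to 0.46, adjusted p = 0.197) did not pass. Snhg9, the host of Snora78, read 4.13, 4.26 and 4.38 in knockout-labelled arrays, against 4.87, 4.56 and 4.51 in wild type arrays. Here every knockout-labelled value was below every wild type value, and the difference of -0.39 (SE 0.13, adjusted p = 0.129) did not pass, although it did after another quantile normalization (-0.53, adjusted p = 0.0393). Snhg17 read 7.72, 7.47 and 6.42 in knockout-labelled arrays, against 7.87, 7.15 and 7.99 in wild type arrays. Its groups overlapped and knockout-labelled replicate 3 was far below the other arrays (-0.46, SE 0.33, adjusted p = 0.523), while its other 2 probe sets differed by 0.19 and 0.18.

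Among the other Snhg genes above the background guide, differences ran from -0.15 to 0.23 and did not pass. With 3 arrays a group, their intervals do not exclude modest changes. Snhg1, which holds a row of box C/D snoRNAs in its introns, differed by -0.15 (95% interval -0.47 to 0.17). Snhg3, the host of both U17 genes, differed by 0.02 (-0.25 to 0.28), Snhg4 by 0.01 (-0.23 to 0.25) and Snhg5 by 0.03 (-0.29 to 0.35). The signs of the last 3 turned after another quantile normalization or median centring over all probe sets. Snhg12 differed by 0.23 (-0.05 to 0.51), Snhg15 by -0.15 (-0.46 to 0.15), Snhg20 by 0.10 (-0.14 to 0.33) and Snhg10 by -0.02 (-0.26 to 0.23). Each of these intervals holds 0, and the limit farthest from 0 is the upper one of Snhg12. The sign of Snhg20 turned after another quantile normalization, and that of Snhg10 when arrays were weighted. Snhg11, Snhg14 and Snhg18 averaged 3.58, 2.11 and 2.38, below the background guide, and differed by 0.09, -0.26 and 0.01. Snhg14 is the long imprinted host transcript of the Prader-Willi region, known from neurons.

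Box H/ACA snoRNAs supplied 4 of the rises among 26. Snora75, which lies in the nucleolin gene Ncl, read 8.43, 8.53 and 7.91 in knockout-labelled arrays, against 7.53, 6.77 and 7.60 in wild type arrays. All 3 knockout-labelled values were above all 3 wild type values, at a difference of 0.99 (SE 0.23, adjusted p = 0.0409). Snora19, inside the translation initiation factor gene Eif3a, read 4.55, 5.30 and 4.73 in knockout-labelled arrays, against 4.10, 3.74 and 3.99 in wild type arrays. The groups were apart (0.92, SE 0.19, adjusted p = 0.0216), and the gene's 2 probe sets hold the same values, so they are 1 measurement. Snora69, inside the ribosomal protein gene Rpl39, read 6.08, 6.24 and 5.80 in knockout-labelled arrays, against 5.28, 4.91 and 5.56 in wild type arrays. It was higher in all 3 knockout-labelled arrays, by 0.79 (SE 0.18, adjusted p = 0.0317).

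Snora73b (U17b), needed for cleavage of the ribosomal RNA precursor, read 9.68, 9.37 and 9.26 in knockout-labelled arrays, against 8.58, 8.84 and 9.02 in wild type arrays. The difference was 0.62 (SE 0.15, adjusted p = 0.0429) with no overlap. Its neighbour Snora73a in the same host, Snhg3, read 8.69, 8.50 and 8.20 in knockout-labelled arrays, against 7.96, 8.06 and 8.14 in wild type arrays, also apart, but the difference of 0.41 (SE 0.13, adjusted p = 0.136) did not pass. No Snora fell past the threshold. The probe set of Snora33 used here, inside the ribosomal protein gene Rps12, differed by -0.14 (adjusted p = 0.681), whereas a second Snora33 probe set read 6.95, 7.19 and 7.07 in knockout-labelled arrays, against 6.57, 6.20 and 6.53 in wild type arrays. That one differed by 0.64 (adjusted p = 0.0236 over all probe sets with 1 symbol), so the 2 Snora33 probe sets disagreed in sign.

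Box C/D snoRNAs supplied 4 rises and the single fall among 47. Snord58b, inside the ribosomal protein gene Rpl17, read 8.24, 7.77 and 7.01 in knockout-labelled arrays, against 6.69, 6.43 and 6.63 in wild type arrays. It had the largest rise of the members past the threshold, 1.09 (SE 0.26, adjusted p = 0.0399), a 2.13-fold difference, although its knockout-labelled values spread over more than 1 log2 unit. Snord92, inside the nucleolar protein gene Wdr43, read 5.37, 5.39 and 5.42 in knockout-labelled arrays, against 5.03, 4.10 and 4.31 in wild type arrays. The knockout-labelled values were close together, the wild type values were not, and the difference was 0.91 (SE 0.21, adjusted p = 0.0335). Snord53 of the same host differed by 0.47 (SE 0.15, adjusted p = 0.131), which did not pass.

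Snord70, inside the gene of the box C/D core protein Nop58, read 7.55, 7.63 and 7.73 in knockout-labelled arrays, against 7.24, 6.66 and 6.51 in wild type arrays. The groups were apart, at 0.83 (SE 0.18, adjusted p = 0.0246). Snord90, inside the RNA-binding ubiquitin ligase gene Rc3h2, read 3.74, 3.45 and 3.61 in knockout-labelled arrays, against 3.07, 3.14 and 3.12 in wild type arrays. The groups were apart (0.49, SE 0.11, adjusted p = 0.0311), but neither group mean reached the guide of 3.835, which leaves the size of this rise uncertain.

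The member that fell was Snord83b, inside the ribosomal protein gene Rpl3, which read 7.39, 7.21 and 6.65 in knockout-labelled arrays, against 7.77, 8.09 and 7.91 in wild type arrays. Every knockout-labelled value was below every wild type value, a difference of -0.84 (SE 0.18, adjusted p = 0.0287), or 1.79-fold. Snord43 of the same host read 6.25, 5.98 and 5.93 in knockout-labelled arrays, against 5.66, 5.74 and 5.81 in wild type arrays, apart in the other direction, and its difference of 0.31 (SE 0.12, adjusted p = 0.187) did not pass. The next smallest p among small RNAs was that of Snord91a, which read 4.74, 4.68 and 4.51 in knockout-labelled arrays, against 3.41, 3.43 and 4.36 in wild type arrays (difference 0.91, SE 0.23, adjusted p = 0.0532). It was just outside the threshold, and wild type replicate 3 stood close to the knockout-labelled arrays. It passed without that replicate (adjusted p = 0.0017), but not with any other single array left out. Its wild type mean of 3.73 was below the background guide, which leaves the size of its difference uncertain.

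**Figure D2:**
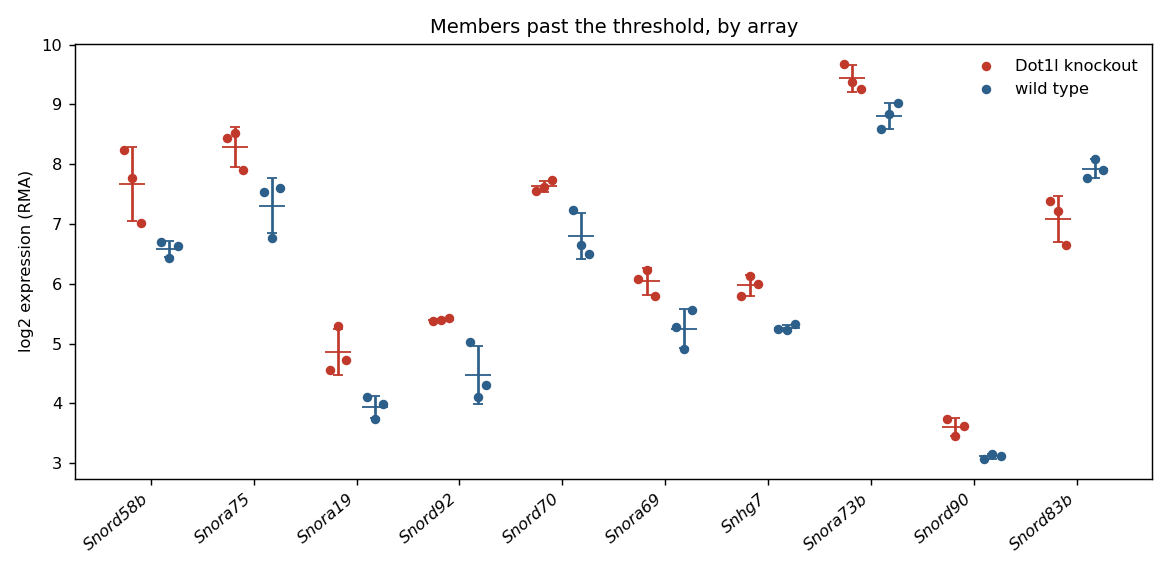
The y axis gives the log2 level of the 10 members past the threshold on each array, with knockout-labelled arrays (red, left) and wild type arrays (blue, right) of each gene and the mean with SD (n = 3 each) as a line with bars. Snhg7 has wild type values of 5.23 to 5.32 beside knockout-labelled values of 5.79 to 6.13, and Snord83b is the gene whose red points lie lower.

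Snhg7 was the one member whose call held in all 6 fits that left out 1 array. It did not pass when knockout-labelled replicate 3 and wild type replicate 2 were left out together, a setting given below. Without 1 array, 2 to 5 members passed as higher and 0 to 2 as lower, and of all genes 494 to 929 passed as higher (2.23% to 4.19%) and 121 to 378 as lower (0.546% to 1.70%). Snora19 passed in 3 of the 6 such fits, with adjusted p of 0.0598, 0.0579 and 0.0658 without knockout-labelled replicate 3 and wild type replicates 2 and 3. Snora69 passed in 2 of 6, without knockout-labelled replicate 3 or wild type replicate 3, and otherwise had adjusted p of 0.0573 to 0.124. Snord83b passed in 2 of 6, without knockout-labelled or wild type replicate 1, and otherwise had adjusted p of 0.0618 to 0.0849. Snord90 passed in 2 of 6, without knockout-labelled or wild type replicate 2, and otherwise had 0.078 to 0.123. Snora75, Snora73b, Snord58b, Snord70 and Snord92 passed in 1 of 6 each. Snora75 and Snord58b passed without knockout-labelled replicate 3 (0.0405 and 0.00352), Snord70 and Snord92 without wild type replicate 1 (0.00218 and 0.00124) and Snora73b without wild type replicate 3 (0.0493). In the other fits these 5 had adjusted p of 0.0529 to 0.148, all in the same direction. After another quantile normalization Snora69, Snora73b, Snora75, Snord58b and Snord92 did not pass, with adjusted p of 0.0547 to 0.0867. Median centring over all probe sets ended the calls on Snord58b, Snord90 and Snora73b (0.0554, 0.0652 and 0.0691), and array weights those on Snora73b and Snord58b (0.0551 and 0.0594).

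Of the 16010 probe sets with no symbol, none was tested. The set of 5333 numbered below every probe set with a symbol moved with the groups, and the others were not looked at apart. Its median per array was 4.12, 4.34 and 4.29 in knockout-labelled arrays, against 3.80, 3.50 and 3.70 in wild type arrays, while the median of the tested genes was 3.905 to 3.919 in knockout-labelled and 3.847 to 3.966 in wild type arrays. With that median as a covariate, 0 of the 93 members passed, and 5 of all 22180 genes did. The median was higher in every knockout-labelled array than in every wild type array, so that fit can hardly separate it from the group label. The SE of Snora75, for example, was 0.234 without the covariate and 0.601 with it. No conclusion on the rises is drawn from that fit. The annotation used here does not say what the unnamed probe sets read, and their part in the rises of the small RNAs was not tested.

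None of the 5 small Cajal body RNAs passed. Scarna6, inside the autophagy gene Atg16l1, read 9.14, 8.92 and 8.30 in knockout-labelled arrays, against 9.99, 9.07 and 9.77 in wild type arrays. Wild type replicate 2 lay inside the range of the knockout-labelled arrays, and the difference was -0.82 (SE 0.26, 95% interval -1.41 to -0.23, adjusted p = 0.124). Scarna2 differed by 0.27 (-0.15 to 0.68), Scarna8 by 0.33 (-0.10 to 0.76), Scarna17 by 0.24 (-0.03 to 0.51) and Scarna10 by 0.03 (-0.22 to 0.29). Scarna10 lies in the condensin gene Ncapd2 and Scarna8 in the spindle gene Haus6. The 2 probe sets of Scarna17 gave 0.24 and 0.34.

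Snord118 (U8) differed by 0.27 (-0.15 to 0.69) and Snord13 (U13) by 0.15 (-0.27 to 0.56), and both intervals include 0. These 2, with Scarna2 and Snord89, are the 4 small RNAs that lie in no other gene of the RefSeq table. The 6 small RNAs with the highest probe set means, from 10.68 to 12.11, were Snora33, Snord99, Snord49b, Snord82, Snord87 and Scarna10, and none of them passed. Snord99 came nearest, reading 11.33, 11.23 and 10.70 in knockout-labelled arrays, against 11.81, 11.65 and 11.52 in wild type arrays. Its groups were apart at -0.58 (SE 0.17, adjusted p = 0.0905). Snord49b differed by -0.33, Snord82 by -0.12 and Snord87 by 0.07, with adjusted p of 0.414, 0.66 and 0.817.

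Small RNAs varied more between replicates than other genes. The median SD within groups was 0.308 log2 units for the 78 small RNAs, 0.158 for the 15 Snhg genes and 0.150 for all genes. That SD was at least 0.5 in 19 small RNAs (24.4%), in 1 Snhg gene (6.67%) and in 0.658% of all genes. Knockout-labelled replicate 3 gave the lowest of the 6 values in 30 of 78 small RNAs (38.5%), in 3 of 15 Snhg genes and in 13.5% of all genes. Wild type replicate 2 gave it in 19 small RNAs (24.4%, beside 17.7% of all genes), and wild type replicate 1 in 22 (28.2%, beside 20.5%). Medians over the small RNAs were 8.05, 7.72 and 7.10 in knockout-labelled arrays, against 7.83, 7.30 and 7.88 in wild type arrays, so 1 array of each group read low. Medians over the Snhg genes were 6.24, 6.17 and 6.15 in knockout-labelled arrays, against 6.21, 5.96 and 6.12 in wild type arrays.

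A set of 13 small RNAs was at least 0.5 log2 units lower in both knockout-labelled replicate 3 and wild type replicate 2 than the mean of the other arrays of that group (16.7%, beside 0.162% of all genes). The set was singled out after its values were seen, so it gets no test. It held 7 Snord, 5 Snora and 1 Scarna, from 12 different hosts and 1 with none. RefSeq lengths ran from 55 to 248 bases (median 98), against 48 to 221 (median 74) for the other 65 small RNAs, and probe set means from 5.52 to 10.52. Snora34, inside Kansl2, read 6.78, 6.57 and 4.96 in knockout-labelled arrays, against 8.23, 5.27 and 7.84 in wild type arrays. Snora15, inside the chaperonin gene Cct6a, read 6.68, 6.58 and 5.12 in knockout-labelled arrays, against 8.02, 5.24 and 7.86 in wild type arrays. These 2 from separate hosts went through the arrays in nearly the same order, with wild type replicates 1 and 3 highest and the 2 low arrays close together.

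Snord22, inside Snhg1, read 10.95, 10.70 and 8.51 in knockout-labelled arrays, against 11.46, 10.09 and 11.44 in wild type arrays. Snhg1 read 7.91, 8.11 and 8.02 in knockout-labelled arrays, against 8.25, 7.87 and 8.37 in wild type arrays, so the host was not low in knockout-labelled replicate 3. Snord1b read 6.50, 5.81 and 4.21 in knockout-labelled arrays, against 7.07, 5.81 and 6.88 in wild type arrays, and Snord89 read 7.15, 6.79 and 5.42 in knockout-labelled arrays, against 7.92, 6.77 and 7.77 in wild type arrays. Differences between the groups in this set ran from -1.08 (Snord1b) to 0.99 (Snora75), with a median of -0.82, and 10 of 13 were negative. With adjusted p from 0.0409 to 0.994, Snora75 was the one that passed. The most negative differences among all members, those of Snord1b (-1.08), Snord89 (-1.03) and Snora34 (-1.01), had standard errors of 0.52, 0.43 and 0.72 and did not pass. Without both of those arrays, a setting chosen after their values were seen, 3 members passed as higher and 5 as lower. Those higher were Snora69, Snora75 and Snord58b, so Snhg7 did not pass there. Those lower were Scarna6, Snora15, Snora34, Snord16a and Snord89. In that fit 491 of all genes passed as higher (2.21%) and 179 as lower (0.807%).

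Another 4 small RNAs were low in wild type replicate 1, by at least 0.5 log2 units below every other array (5.13%, beside 0.248% of all genes). Among them Snora44 read 10.70, 10.89 and 10.62 in knockout-labelled arrays, against 9.19, 10.28 and 10.96 in wild type arrays. Snord73b, inside the ribosomal protein gene Rps3a1, read 10.86, 10.57 and 10.72 in knockout-labelled arrays, against 9.10, 10.44 and 10.94 in wild type arrays, and Snord73a of the same host read 9.10, 8.87 and 8.51 in knockout-labelled arrays, against 7.40, 8.38 and 9.23 in wild type arrays. Wild type replicate 1 was the low array in all 3, and the other 5 arrays overlapped. Snora44 differed by 0.59 (SE 0.35), Snord73b by 0.55 (SE 0.38) and Snord73a by 0.49 (SE 0.38), and none passed. Why small RNAs differ between replicates of a group was not tested.

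**Figure D3:**
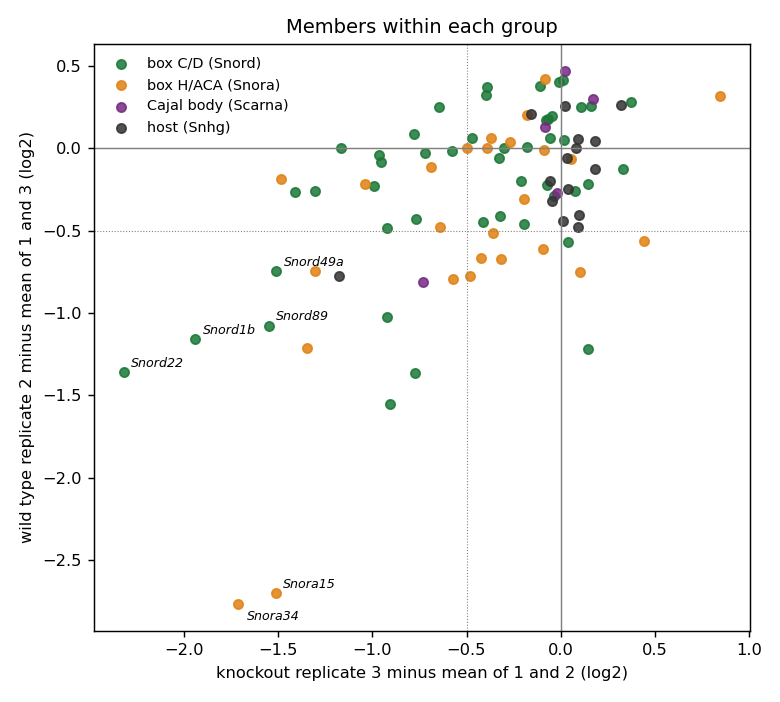
Each point is 1 of the 93 members, coloured by class. The x axis gives its log2 level in knockout-labelled replicate 3 minus the mean of replicates 1 and 2, the y axis that in wild type replicate 2 minus the mean of replicates 1 and 3, and dotted lines mark -0.5. Below and left of both lines lie 13 small RNAs and 1 Snhg gene, with Snord22, Snora34 and Snora15 farthest out.

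Hosts were set beside the small RNAs they contain. A host is the gene of the RefSeq table that encloses the small RNA, without regard to strand, which that table does not hold. It was found for 71 of 78 small RNAs, 3 had more than 1 enclosing gene, and 60 small RNAs fell in 46 hosts that were measured, 37 protein-coding, 7 Snhg and 2 other noncoding genes. Of these 46 hosts 1 rose, 0 fell and 45 did not pass, beside 4.30% and 1.20% of all genes. Among all genes above the background guide 7.87% passed as higher and 2.08% as lower. Differences of the 46 hosts ran from -0.42 to 0.58, with a median of 0.001. The median size of the difference was 0.096 in the hosts and 0.418 in their small RNAs, and in 45 of 60 pairs the small RNA had the larger size. Only 9 of these 60 small RNAs passed. The sizes take no account of spread between replicates, which was wider in the small RNAs (median SD 0.308, beside 0.150 for all genes). A wider spread by itself gives larger sizes, and its part in this gap was not tested. The sign was shared in 34 pairs and opposite in 26.

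Snhg7 is not among these measured hosts, because none of the small RNAs was placed in it. Among them the host that rose was Rpl39, which encodes a protein of the large ribosomal subunit. It read 4.83, 5.13 and 5.03 in knockout-labelled arrays, against 4.58, 4.36 and 4.32 in wild type arrays. The groups did not overlap, and the difference was 0.58 (SE 0.12, adjusted p = 0.0231), beside 0.79 for Snora69 within it. The call on Rpl39 was lost without knockout-labelled replicates 2 or 3 or wild type replicates 2 or 3, each left out alone, with adjusted p of 0.0518 to 0.105, and after another quantile normalization (adjusted p = 0.0787). The other hosts of small RNAs past the threshold did not pass. Rpl17 read 7.33, 7.37 and 7.43 in knockout-labelled arrays, against 6.94, 7.21 and 6.78 in wild type arrays, a difference of 0.40 (95% interval 0.12 to 0.68, adjusted p = 0.118). Ncl, which encodes the nucleolar protein nucleolin, read 10.35, 10.57 and 10.47 in knockout-labelled arrays, against 10.50, 10.39 and 10.41 in wild type arrays, with the groups overlapping at 0.03 (-0.20 to 0.26). Nop58 differed by -0.03 (-0.28 to 0.21), Wdr43 by 0.09 (-0.15 to 0.33), Eif3a by -0.15 (-0.40 to 0.09), Rc3h2 by 0.14 (-0.11 to 0.39) and Rpl3 by -0.12 (-0.45 to 0.22). Whether a small RNA differed from its host was not tested.

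**Figure D4:**
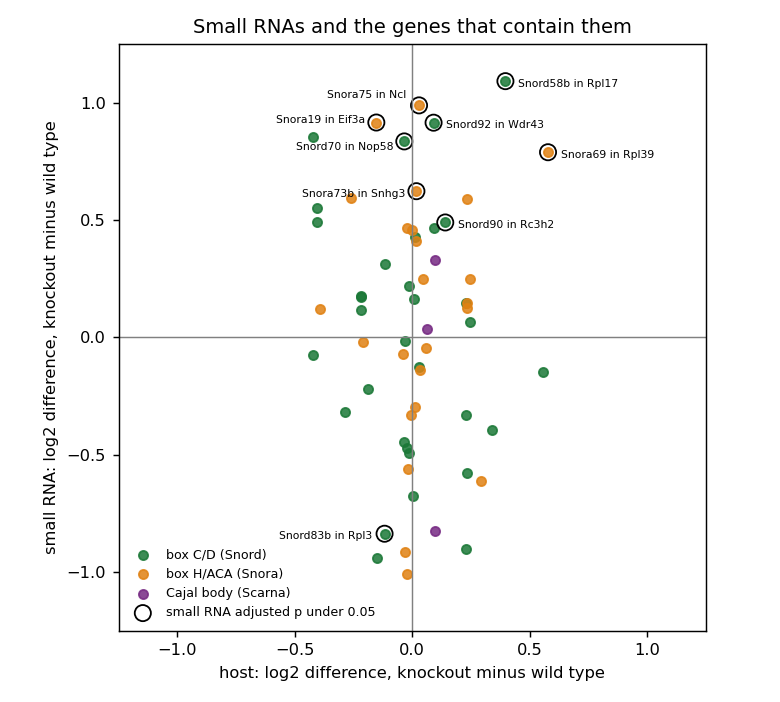
Each point is 1 of 60 small RNAs, with the log2 difference of its host (knockout-labelled minus wild type) on the x axis and its own on the y axis, both drawn to the same scale and coloured by class. Rings mark the 9 small RNAs past the threshold, named with their hosts, and the cloud is taller than it is wide, with hosts between -0.42 and 0.58. The small RNAs also varied more between replicates than other genes.

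Small RNAs of 1 host did not always share a sign. Of 11 hosts with more than 1 measured small RNA, holding 25 in all, 7 had small RNAs of both signs. Signs were counted whether or not a difference passed, and in no host did small RNAs pass in both directions. The sign of a small difference can turn on replicate spread, so no result about the hosts is drawn from this count. In Nop58, Snord70 rose as given above, while Snord11 read 8.22, 7.68 and 7.17 in knockout-labelled arrays, against 7.89, 8.19 and 8.32 in wild type arrays (-0.45, adjusted p = 0.372). In Ncl, Snord82 read 10.69, 10.57 and 10.74 in knockout-labelled arrays, against 10.83, 10.96 and 10.59 in wild type arrays (-0.12), beside the rise of Snora75. In Gnl3, which encodes nucleostemin, Snord19 read 4.75, 4.78 and 4.91 in knockout-labelled arrays, against 4.50, 3.15 and 4.23 in wild type arrays (0.85, adjusted p = 0.147). Snord69 of that host had a difference of -0.07, and Gnl3 itself one of -0.42 (95% interval -0.74 to -0.10, adjusted p = 0.145).

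Snhg12, whose start region is shown above, holds 4 measured small RNAs. Snhg12 itself read 6.45, 6.39 and 6.46 in knockout-labelled arrays, against 6.44, 6.04 and 6.12 in wild type arrays. Snora61 read 9.24, 9.23 and 9.14 in knockout-labelled arrays, against 8.97, 9.05 and 9.15 in wild type arrays, and Snora16a read 10.07, 9.90 and 10.83 in knockout-labelled arrays, against 9.78, 10.35 and 10.28 in wild type arrays. Snora61 was the steadiest of the 4, and Snora16a was highest in knockout-labelled replicate 3, the array in which Snord99 was lowest. The differences were 0.15 for Snora61, 0.13 for Snora16a, 0.59 for Snora44 and -0.58 for Snord99, with adjusted p of 0.508, 0.841, 0.438 and 0.0905.

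**Figure D5:**
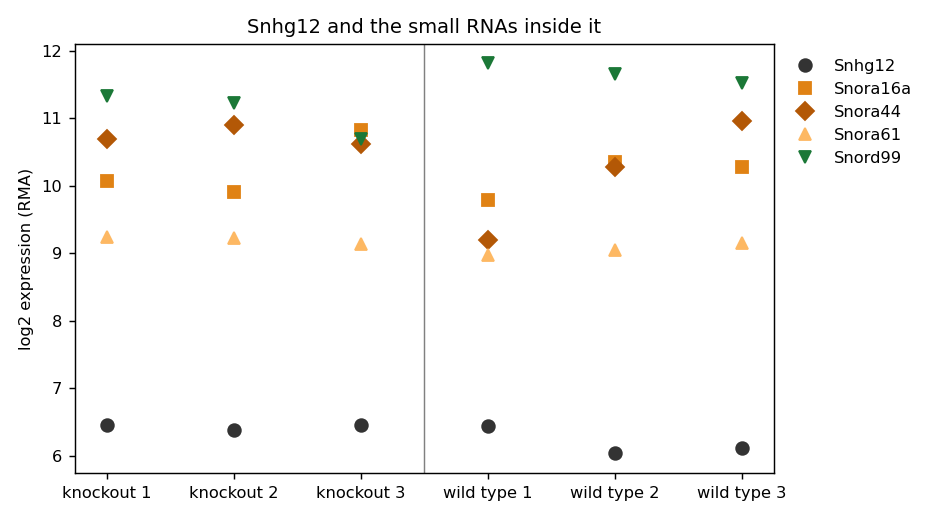
Log2 levels of Snhg12 and its 4 measured small RNAs are plotted for each array, knockout-labelled arrays left of the line and wild type arrays right of it, with each gene as its own marker. Snora44 is low in wild type replicate 1, Snord99 is lower in all 3 knockout-labelled arrays, and Snhg12 lies between 6.04 and 6.46 throughout.

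The lists of the pathway hold the core proteins of these RNAs, the factors that assemble them, and genes of ribosomal RNA synthesis and processing and of RNA decay. Of their 84 measured genes in 8 lists, 0 rose, 1 fell and 83 did not pass, beside 4.30% and 1.20% of all genes, with a median difference of -0.03. Of the 84, 83 averaged above the background guide, and among all genes above it 7.87% passed as higher and 2.08% as lower. Core box C/D proteins were represented by Nop56 (-0.02), Nop58 (-0.03) and Snu13 (0.11), and core box H/ACA proteins by the pseudouridine synthase gene Dkc1 (0.05), Gar1 (-0.20), Nhp2 (0.02) and Nop10 (-0.16), with adjusted p of 0.328 or more. The medians were -0.11 over 11 assembly and maturation factors, 0.03 over 5 Cajal body genes, -0.14 over 11 genes of RNA polymerase I transcription, -0.10 over 11 genes of nonsense-mediated decay and -0.04 over 17 genes of debranching, trimming and the exosome. The one gene that fell belonged to the 22 genes of the processome that binds the U3 snoRNA (median 0.02). Rrp9, which recognises U3, read 5.46, 5.12 and 5.25 in knockout-labelled arrays, against 5.88, 5.86 and 5.88 in wild type arrays. All knockout-labelled values lay below all wild type values, a difference of -0.59 (SE 0.11, adjusted p = 0.0154). U3 itself was not among the members. The fall of Rrp9 did not pass without knockout-labelled replicate 2 or 3 or wild type replicate 3, each left out alone, with adjusted p of 0.0553 to 0.0739.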

How the data were processed

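Total RNA of CD8+ T cells was read on Affymetrix whole-transcript arrays, 3 knockout-labelled and 3 wild type. The deposited values are log2 levels per probe set, for which the submitters' processing notes name RMA and R 3.1.1. No batch, scan date or genome build was found in the sources used here. Of 41345 probe sets, 23521 carry 1 gene symbol in the platform annotation, 1814 carry several and 16010 none. The 22180 genes with 1 symbol were fitted in R 4.3.3 by limma 3.58.1, using lmFit and eBayes for knockout-labelled minus wild type with no covariate, with Benjamini-Hochberg adjustment over all of them, and passed at an adjusted p under 0.05. The fit was tested on simulated data. The number of arrays limits the precision, and an exact permutation test of 3 arrays against 3 cannot go below 0.10.

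The members and gene lists were chosen with earlier results of these data known. Named were all Snhg genes, the small RNAs that passed, the 10 with the smallest p, the 6 with the highest means, small RNAs in Snhg hosts, hosts of named small RNAs, core proteins, list genes that passed and Dot1l. Every other small RNA named was chosen after its values were seen. All 93 members matched the RefSeq gene table (GRCm38.p6). Hosts were to be matched on strand too, but the table gives no strand, so they were matched by containment, with known pairs settling small RNAs inside more than 1 gene. Start regions were found for 52 of 65 Snhg genes and hosts. Alternatives were a replicate block, each array left out, other normalizations, filters on low levels, trend and robust fitting, array weights, averaged probe sets, other thresholds and, chosen after seeing the data, a covariate and a pair of arrays left out.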

Additional observations from a re-analysis of the deposited data

Results flagged for a closer look

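The block of 5333 unnamed probe sets, which no comparison of the members uses, read higher in each knockout-labelled array than in each wild type array, with a median difference of 0.431 log2 units. Probe sets that list a member name beside another symbol were kept out of the members, since their signal cannot be given to 1 gene. They held 32 distinct rows of values, and in a fit over all 25335 probe sets with a symbol 1 of these rose and 0 fell, beside 4.63% of all probe sets in that fit called in either direction. The one that rose differed by 1.233 log2 units (limma, adjusted p = 0.0185), and the median over the 32 was 0.14.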

How the results depend on the processing

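Without 1 array, 2 to 5 members rose and 0 to 2 fell, 0 to 2 genes of the pathway lists fell, and 0 to 1 hosts rose and 0 to 2 fell. After another quantile normalization 4 members rose and 2 fell, with 0 hosts rising and 1 falling, and at an adjusted p under 0.01 1 rose and 0 fell, while 2 fell at 0.10. With the median of the 5333 unnamed probe sets as a covariate 0 members rose, 0 fell, 0 pathway genes fell and 0 hosts rose, and 5 of all genes passed. Without both knockout-labelled replicate 3 and wild type replicate 2, 3 members rose, 5 fell, 0 pathway genes fell and 0 hosts rose. Both settings were chosen after seeing the data, and the covariate can hardly be separated from the group label. In the pathway lists 1 gene rose above the 25th percentile of level, above the 50th and with trend and robust fitting, and 2 fell after quantile normalization, with median centring over all probe sets, above the 50th percentile and with trend and robust fitting. Above the 50th percentile, with trend and robust fitting, with array weights and with averaged probe sets, 2 hosts rose. Over the members named, 402 values under alternatives kept direction and side of the threshold, 69 no longer passed, 7 newly passed and 43 changed sign. The cause of these changes was not tested.

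Replicate numbers are shared between the groups, and the labels state no pairing. Deviations of same-numbered arrays correlated at -0.074, -0.157 and -0.074 over all genes, and at 0.282, -0.6 and -0.383 over the members. With so few arrays these values cannot show whether the numbers pair the arrays. With the replicate block 5 members rose and 2 fell, beside 3.23% and 0.884% of all genes, and 0 hosts rose. The block ended the calls on Snora69, Snora73b, Snora75, Snord90 and Rpl39, with adjusted p of 0.0576 to 0.0933.

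Signs turned in 15 of the members named. Those under the covariate come from a fit that can hardly separate it from the group label. The covariate gave -0.104 for Snora19, -0.143 for Snord92, 0.134 for Snora33, 0.052 for Snord49b, 0.186 for Snord82, 0.344 for Snhg10, -0.176 for Snhg12, -0.128 for Snhg20, -0.09 for Snhg4 and -0.648 for Snhg5. Leaving out both arrays gave 0.027 for Snora33, 0.104 for Snhg10, -0.011 for Snhg18, -0.027 for Snhg3, -0.001 for Snhg4 and -0.156 for Snhg5, beside 0.148 for Snord87 and 0.107 for Scarna10. Median centring over all probe sets gave -0.015 for Scarna10, -0.041 for Snhg18, -0.032 for Snhg3, -0.04 for Snhg4 and -0.018 for Snhg5. Quantile normalization gave -0.065 for Snhg20, -0.083 for Snhg3, -0.063 for Snhg4 and -0.013 for Snhg5. Array weights gave 0.006 for Snhg10 and -0.032 for Snhg5, and averaging its probe sets gave 0.248 for Snora33. Leaving out 1 array gave -0.242 to 0.025 for Snora33, -0.012 to 0.126 for Snord87, -0.048 to 0.079 for Scarna10, -0.059 to 0.052 for Snhg10, -0.042 to 0.171 for Snhg11, -0.12 to 0.096 for Snhg18, -0.057 to 0.088 for Snhg3, -0.034 to 0.083 for Snhg4 and -0.126 to 0.129 for Snhg5.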
